A study of Mus musculus with 19 samples.

Results

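The casein super-enhancer is a cluster of enhancer sites in the casein locus of the mouse, and mice that lack it (ΔSE, genotype Enhancer-delS1-4) are described here at 2 stages of pregnancy. Members were chosen by their labels: 4 libraries of ΔSE mammary tissue from pregnancy day 6 (p6) and 4 from day 18 (p18), 8 of the 19 libraries of the series. All were made from total RNA of C57BL/6 mammary glands after removal of ribosomal RNA. The study produced its mutants by injecting Cas9 and guide RNAs into fertilized eggs, so the deletion was not restricted to epithelium. For 1 comparison, wild-type (WT) libraries of the same strain were used, 3 at p6 and 3 at p18.

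Caseins are the main proteins of mouse milk, and their genes are transcribed in alveolar secretory epithelium under prolactin, which acts through the kinase JAK2 and the transcription factor STAT5. During pregnancy the ducts of the gland branch, alveoli form in place of fat, and the alveolar cells acquire the machinery to make milk protein, lactose and fat. The question put to these libraries was which of those pregnancy changes occurred in glands without the super-enhancer.

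Values are normalized CPM, the reads of a gene scaled to a common library total after TMM scaling over the 8 libraries, with the ribosomal RNA transcript Rn45s and the gene Lars2 left out of the totals. These 2 took 28.7% to 48.8% of reads at p6 and 47.2% to 57.0% at p18, and the remaining totals were 6310128 to 10447527 and 6809988 to 8590169 reads. A gene was called when the adjusted p of edgeR's quasi-likelihood test, over all 17111 genes tested, was under 0.05. Of all genes tested 19.1% were called higher and 21.9% lower at p18, and counts of list members are to be read beside these shares. The study calls its replicates biological ones, but the labels name no animals, and p-values measure the spread between these libraries. Log2 fold changes are p18 over p6, with the standard error (SE) for the genes described in full. In whole tissue, fewer cells of a type and less RNA per cell cannot be told apart.

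Replicates 2 and 4 at p6 stood apart by skeletal muscle RNA. Acta1, the actin of skeletal muscle, had 24.3, 1261, 64.7 and 1381 CPM at p6 and 6.78, 6.62, 4.98 and 7.07 CPM at p18. The 15 muscle genes listed summed to 157 to 8700 CPM at p6 and 31.5 to 53.6 CPM at p18, and all 15 were called lower, as were 21.9% of all genes tested. None of the 15 was at 0 in every p18 library. Without those 2 libraries 14 of the 15 fell, and their median log2 fold change was -3.17 in place of -7.34. Where a count below moved by more than 1.5 times without those 2 libraries, the second count is given beside the first.

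Luminal and basal cells were present in every library. Of 15 luminal epithelial markers, 13 rose and 2 fell, where 19.1% of all genes tested rose, and their sum went from 1269 to 2251 CPM at p6 to 3262 to 3464 CPM at p18. Krt8, a keratin of luminal cells, had 328, 228, 229 and 161 CPM at p6 and 529.5, 543, 498 and 493 CPM at p18. The stages did not overlap. The basal keratin Krt5 was found at 47.2 to 116 CPM in the 8 libraries.

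The 250 bases before the RefSeq start (build GRCm38.p6) are shown for 4 of the genes that rose most, 3 caseins and the unlinked milk protein gene Glycam1. Capitals mark TTCNNNGAA, the palindromic motif that STAT proteins bind. It reads the same way on both strands, so 1 strand was searched.
Csn1s1, chr5:87665958-87666207, plus strand: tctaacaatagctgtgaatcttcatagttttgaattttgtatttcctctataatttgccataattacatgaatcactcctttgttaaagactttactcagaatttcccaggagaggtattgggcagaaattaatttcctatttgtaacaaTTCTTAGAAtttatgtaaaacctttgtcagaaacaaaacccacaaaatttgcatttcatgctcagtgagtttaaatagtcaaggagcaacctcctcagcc
Csn2, chr5:87699426-87699675, minus strand: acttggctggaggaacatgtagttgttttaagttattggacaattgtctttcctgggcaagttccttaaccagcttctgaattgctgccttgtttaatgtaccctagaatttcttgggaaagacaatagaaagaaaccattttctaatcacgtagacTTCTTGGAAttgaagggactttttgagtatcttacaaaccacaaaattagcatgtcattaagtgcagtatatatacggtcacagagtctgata
Csn1s2a, chr5:87774200-87774449, plus strand: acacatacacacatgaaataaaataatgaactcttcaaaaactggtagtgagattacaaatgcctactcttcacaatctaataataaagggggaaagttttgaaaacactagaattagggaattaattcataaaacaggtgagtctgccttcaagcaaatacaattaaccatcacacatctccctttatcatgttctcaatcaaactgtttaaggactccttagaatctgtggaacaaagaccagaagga
Glycam1, chr15:103565082-103565331, minus strand: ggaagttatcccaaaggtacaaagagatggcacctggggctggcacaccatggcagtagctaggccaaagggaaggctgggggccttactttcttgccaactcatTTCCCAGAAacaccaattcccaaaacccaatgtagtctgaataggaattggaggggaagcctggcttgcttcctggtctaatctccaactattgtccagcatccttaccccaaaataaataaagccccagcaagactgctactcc
The motif began 100 bases before the RefSeq start in Csn1s1, 93 bases before it in Csn2 and 145 bases before it in Glycam1. It was not in this window of Csn1s2a. That window ends at 87774449, short of the GENCODE vM21 start of Csn1s2a at 87774567, and the bases between were not searched. For Csn2 the GENCODE vM21 start, 87699630, lies inside the window. The study reports STAT5 binding close to the start of Csn1s2a, at a site with such a motif. The absence therefore holds for the printed window only. Of all 32851 promoters, 7.02% held the motif in the same window before the RefSeq start. Of the 15 genes with the largest rises 14 had a RefSeq promoter, and 3 of these held it (21.4%), namely Csn1s1, Csn2 and Glycam1. A match is a description of the sequence, not of binding.

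Casein mRNA rose strongly between p6 and p18 in glands without the super-enhancer. Together the 5 casein genes took 0.0189% ± 0.0135 (SD, n = 4) of counted reads at p6 and 7.40% ± 1.73 (SD, n = 4) at p18. The log2 difference was 8.88, and the 2-sided exact permutation test gave p = 0.0285714, the smallest that 70 splits allow. Of the 5 genes 4 rose, and Csn1s2b was not called.
Csn1s1 (chr5:87666208-87682578, GRCm38), which encodes αS1-casein, had 176, 29.7, 30.5 and 69.6 CPM at p6 and 25709.8, 21883, 12346 and 16854 CPM at p18. Csn2 (chr5:87692624-87699630), the β-casein gene, had 91.3, 21.8, 24.4 and 59.8 CPM at p6 and 38847, 34068, 21483 and 23171 CPM at p18. Csn1s2a (chr5:87774567-87788797), an αS2-type casein, had 57.3, 22.1, 19.7 and 59.9 CPM at p6 and 42200.0, 38562, 22722 and 27404 CPM at p18. In all 3 genes the lowest p18 library stood over the highest p6 library, and replicates 1 and 4 were the higher ones at p6. The log2 fold changes were 7.97 (SE 0.64, adjusted p = 1.62e-06, edgeR), 9.22 (SE 0.56, adjusted p = 1.84e-07) and 9.68 (SE 0.51, adjusted p = 6.42e-08).
Csn3 (chr5:87925579-87932665), the gene of κ-casein, the protein that stabilizes micelles, had 0.718, 0, 1.7 and 10.7 CPM at p6 and 264, 235, 96.6 and 90.9 CPM at p18. Its log2 fold change was 5.63 (SE 0.75, adjusted p = 8.2e-05, edgeR), and no library of one stage overlapped the other. Csn1s2b (chr5:87808082-87824426), another αS2-type casein, had 0.205, 0.191, 0 and 18.2 CPM at p6 and 12.5, 28.4, 6.1 and 4.75 CPM at p18. At p6, 1 library lay within the p18 range and the other 3 were near 0. With that library the log2 fold change was 1.40 (SE 1.05, adjusted p = 0.313, edgeR), and without p6 replicate 4 it was 6.31 (adjusted p = 0.000148). The same library was the highest of the 4 at p6 for Csn3.

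**Figure D1:**
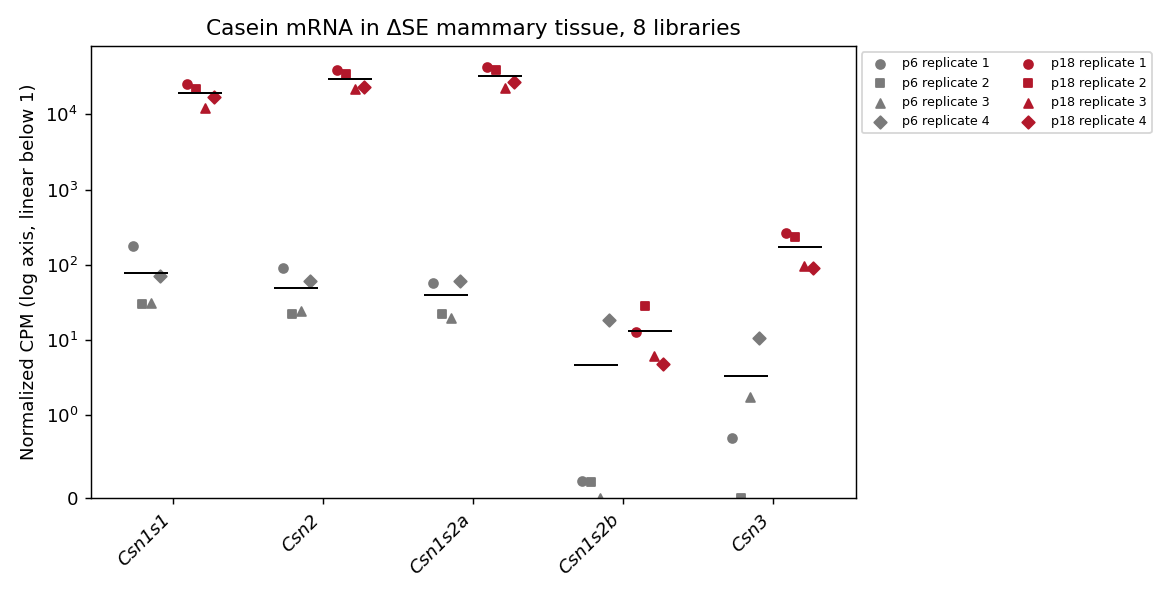
Normalized CPM of the 5 casein genes in each ΔSE library, on a log axis that is linear below 1, with p6 in grey, p18 in red, symbols for replicates and lines for means. Csn1s1, Csn2 and Csn1s2a stand at 19.7 to 176 CPM at p6 and 12346 to 42200 CPM at p18, while Csn1s2b overlaps between stages through p6 replicate 4.

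Levels per kilobase were divided by all bases annotated as exon in any transcript, 3504 for Csn1s2a, 6926 for Csn2 and 6247 for Csn1s1. On that scale the p18 levels were 9338 CPM per kb for Csn1s2a, 4244 for Csn2 and 3073 for Csn1s1, and other transcript lengths, which were not tried, may change their order. Csn3 stood at 41.3 CPM per kb and Csn1s2b at 3.04 CPM per kb. Prr27 and Odam, which lie between Csn1s2b and Csn3, had 2 reads and 0 reads in all 4 p18 libraries together and were not tested. Of 12 genes listed between or beside the caseins 7 were tested, and 3 of these rose, where 19.1% of all genes tested rose. Sult1d1, a sulfotransferase gene, rose from 0 to 0.381 CPM at p6 to 2.24 to 3.53 CPM at p18. The other 2 were Grsf1, which encodes an RNA-binding protein, at 0.44 (log2), and Mob1b at 0.73. With library totals alone 2 of the 7 rose.

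Milk proteins encoded elsewhere rose as well. Of 23 genes listed, 21 rose and 2 fell, with a median log2 fold change of 3.84 against -0.08 over all genes tested. Stages did not overlap in any of the 23, nor for 19% of all genes tested that were higher and 20.7% that were lower at p18.
Glycam1 (chr15:103562759-103565081), a mucin-like secreted protein, had 25.8, 9.15, 10.5 and 22.6 CPM at p6 and 23491, 20476, 11685 and 10380.0 CPM at p18. Wap (chr11:6635482-6638637), the whey acidic protein, had 5.54, 1.14, 1.56 and 21.7 CPM at p6 and 7822, 6181, 2720.2 and 2310.4 CPM at p18. Lalba (chr15:98480400-98482721), α-lactalbumin, which turns galactosyltransferase into lactose synthase, had 0.41, 0.572, 0.142 and 1.45 CPM at p6 and 338, 289, 137 and 236 CPM at p18. In all 3 the stages did not overlap, and p18 replicates 1 and 2 were above replicates 3 and 4 in each. Their log2 fold changes were 9.91 (SE 0.50), 9.26 (SE 0.87) and 8.45 (SE 0.40), with adjusted p values of 4.82e-08, 5.44e-06 and 3.73e-08 (edgeR).
Lao1, an L-amino acid oxidase found in mouse milk, rose by 10.61 on the log2 scale, from at most 2.53 CPM at p6 to 743 to 2795 CPM at p18. Spp1, osteopontin, rose by 9.19, to 1356 to 5826 CPM at p18. Pigr, the receptor that carries antibodies across the epithelium, rose by 7.78. Btn1a1, the butyrophilin gene, had 45.7, 16.2, 23.1 and 46.2 CPM at p6 and 1923, 1739, 1186 and 1175 CPM at p18. Xdh, which like Btn1a1 is needed for secretion of the milk fat globule, had 183, 190.0, 210.3 and 228 CPM at p6 and 2043, 1780.1, 1444 and 1446 CPM at p18. Both rose without overlap between stages. Pthlh and Fcgbp fell by 2.17 and 1.64.
Across the 25 genes called higher in the casein and milk protein lists, p18 replicates 1 and 2 were above replicates 3 and 4 in 24, with a median ratio of 1.64. Over 3035 genes called higher, those averaging 50 or more normalized counts, the share was 43.5%.

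**Figure D2:**
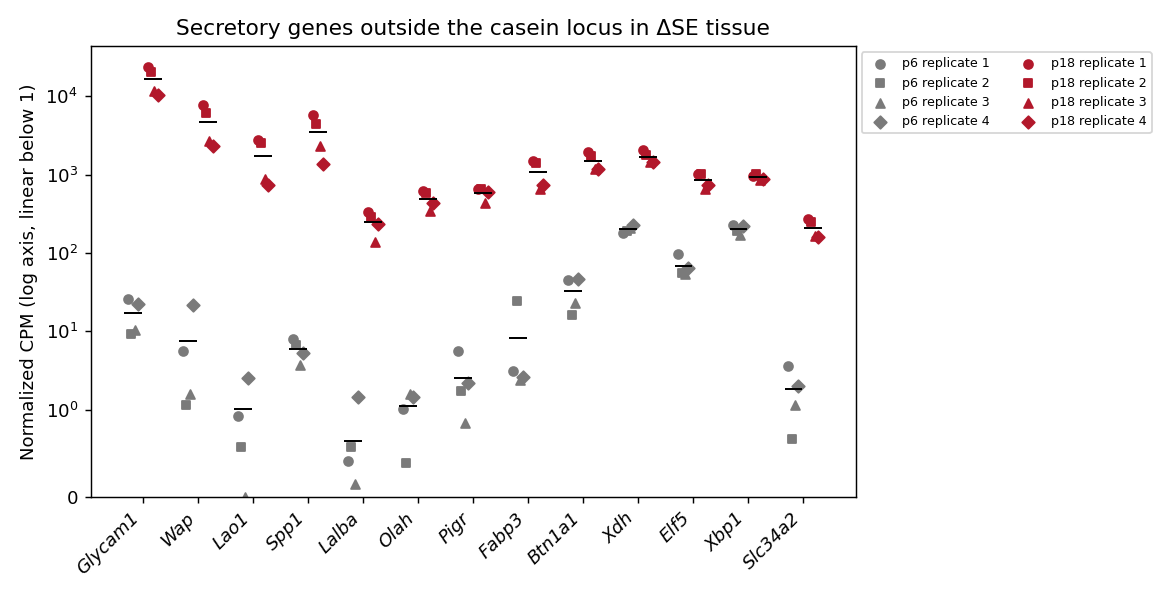
Normalized CPM of 13 secretory genes outside the casein locus in each ΔSE library, on a log axis that is linear below 1, with p6 in grey, p18 in red and lines for means. In all 13 genes the 4 p18 libraries sit above the 4 p6 libraries.

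Saa1, an acute phase protein gene, had 0 reads in every p6 library and 54.4, 47.8, 23.7 and 15.8 CPM at p18, which is at least 83.3-fold higher against a floor of 3 counts per library. Saa1 and Saa2 are near-identical copies, so reads may be split between them, and their single values are uncertain. Of 19 acute phase genes listed, 8 rose and 3 fell, where 19.1% of all genes tested rose and 21.9% fell. Lcn2 rose by 3.43, while Socs3 stood at -0.18 (not called).

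Lactose synthesis genes rose in part. Of 19 genes, 10 rose and 2 fell, median 0.40, while 10 rose and 1 fell without p6 replicates 2 and 4, and 6 rose and 4 fell with library totals alone. B4galt1, the galactosyltransferase that pairs with α-lactalbumin, had 147, 119, 103 and 127 CPM at p6 and 1449, 1343, 832 and 900.0 CPM at p18. Its p18 libraries were all above its p6 libraries. Glucose transporters Slc2a1 and Slc5a1 rose by 1.58 and 2.27.

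Fat genes went both ways. Of 18 genes of fatty acid synthesis, 6 rose and 10 fell, and of 20 genes of fatty acid uptake and triglyceride assembly 11 rose and 6 fell. Olah, the thioesterase that ends chains at medium length, as in milk fat, had 1.03, 0.381, 1.56 and 1.45 CPM at p6 and 612, 586, 346 and 439 CPM at p18. Fasn, fatty acid synthase, had 10576, 16331, 7581 and 15829 CPM at p6 and 6382, 5687, 5564 and 4246 CPM at p18. Scd1, a desaturase, had 24217, 33026, 25747 and 32169.5 CPM at p6 and 5819, 5676, 7245 and 6867 CPM at p18. Olah rose by 8.83 (SE 0.30), and the stages did not overlap in any of these 3. Fasn fell by 1.20 (SE 0.24) and Scd1 fell by 2.17 (SE 0.19). Acly, which makes acetyl-CoA for fat, fell by 1.04 and was no longer called without p6 replicates 2 and 4 (adjusted p = 0.246, edgeR). The adipocyte list below moved in the same direction, and its part in these falls was not tested. Fabp3, which carries fatty acids, had 3.08, 24.6, 2.41 and 2.62 CPM at p6 and 1488, 1414, 654 and 735 CPM at p18. At p6 replicate 2 was the high one. Plin2, a lipid droplet coat, had 268, 227, 143 and 258 CPM at p6 and 1729, 1726, 1766 and 1848 CPM at p18. Neither gene overlapped between stages.
Of 23 cholesterol synthesis genes, 4 rose and 8 fell, or 4 and 5 without p6 replicates 2 and 4, and 3 and 16 with library totals alone. The share that rose was near the 19.1% of all genes tested. Insig1, a sterol sensor partner, fell by 2.18.

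Transport and secretion genes rose in most lists. Of 19 genes of calcium, zinc and phosphate transport 13 rose and 2 fell, median 0.93. Slc34a2, a phosphate transporter, had 3.59, 0.667, 1.13 and 1.99 CPM at p6 and 269.8, 251, 166 and 160.3 CPM at p18. The stages did not overlap, and p18 replicates 1 and 2 were the highest. The zinc transporter Slc30a2 and the calcium pump Atp2b2 rose by 3.53 and 3.48. Amino acid transporters divided, with 11 of 21 higher and 8 lower, among them Slc7a5 at 2.41 and Slc36a2 at -2.65.
Of 32 genes of endoplasmic reticulum translocation and folding, 25 rose and 1 fell, and of 32 genes of vesicle traffic to the Golgi 22 rose. Their medians were 0.55 and 0.41. With library totals alone 16 rose and 2 fell in the first list and 13 and 2 in the second. Xbp1, the transcription factor that expands the secretory pathway, had 227, 191, 169 and 218 CPM at p6 and 966, 1034, 845 and 882 CPM at p18. No library of one stage reached the other. Sec23b, a coat protein of vesicles, rose by 1.65. Ribosomal protein genes rose in 72 of 80, and this count was 33 with library totals alone.

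Epithelial junction and identity genes rose, and hormone-sensing genes fell. Tight junction genes rose in 15 of 18 and fell in 2, median 0.95, with Cgn, cingulin, at 2.01. Of 21 transcription factors of alveolar epithelium, 12 rose and 4 fell, or 9 and 6 with library totals alone. Elf5, which specifies alveolar cells, had 97.2, 55, 54 and 64.6 CPM at p6 and 1026, 1007, 656 and 729.8 CPM at p18. The stages did not overlap. Its log2 fold change was 3.66 (SE 0.22, adjusted p = 1.84e-07, edgeR).
Of 14 genes of prolactin signalling, 5 rose and 5 fell, or 3 and 7 with library totals alone. Stat5a had 138, 96.9, 113 and 100.1 CPM at p6 and 301, 301, 233 and 236 CPM at p18. It rose by 1.26, and the stages did not overlap. Cish, a STAT5 target that feeds back on the pathway, rose by 1.53 and Stat5b by 0.47. Prlr, the prolactin receptor, had 346, 415, 326 and 161 CPM at p6 and 211, 173, 152 and 168 CPM at p18. For Prlr the stages overlapped through p6 replicate 4, and it fell by 0.83 (SE 0.22). Jak2 was not called, at 0.18.
Hormone-sensing genes fell in 14 of 15, median -2.18. Areg (chr5:91139599-91148432), the epidermal growth factor ligand released by estrogen-responsive cells, had 88.6, 66.3, 73.7 and 57.8 CPM at p6 and 4.41, 4.96, 7.34 and 7.19 CPM at p18. Cited1, a coregulator in these cells, had 29.7, 37.8, 37 and 22.2 CPM at p6 and 0.339, 0.331, 2.49 and 4.87 CPM at p18. Pgr and Esr1, the progesterone and estrogen receptors, fell by 1.52 and 1.20. In Areg and Cited1 no p18 library reached the p6 range.
In the EGF and Wnt list 13 of 25 genes fell and 5 rose. Without p6 replicates 2 and 4, 12 of 24 fell and 3 rose, and with library totals alone 16 of 25 fell and 2 rose. Lgr5, a stem cell receptor, fell by 3.37, while Egf and Erbb4 rose by 1.03 and 0.80.

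**Figure D3:**
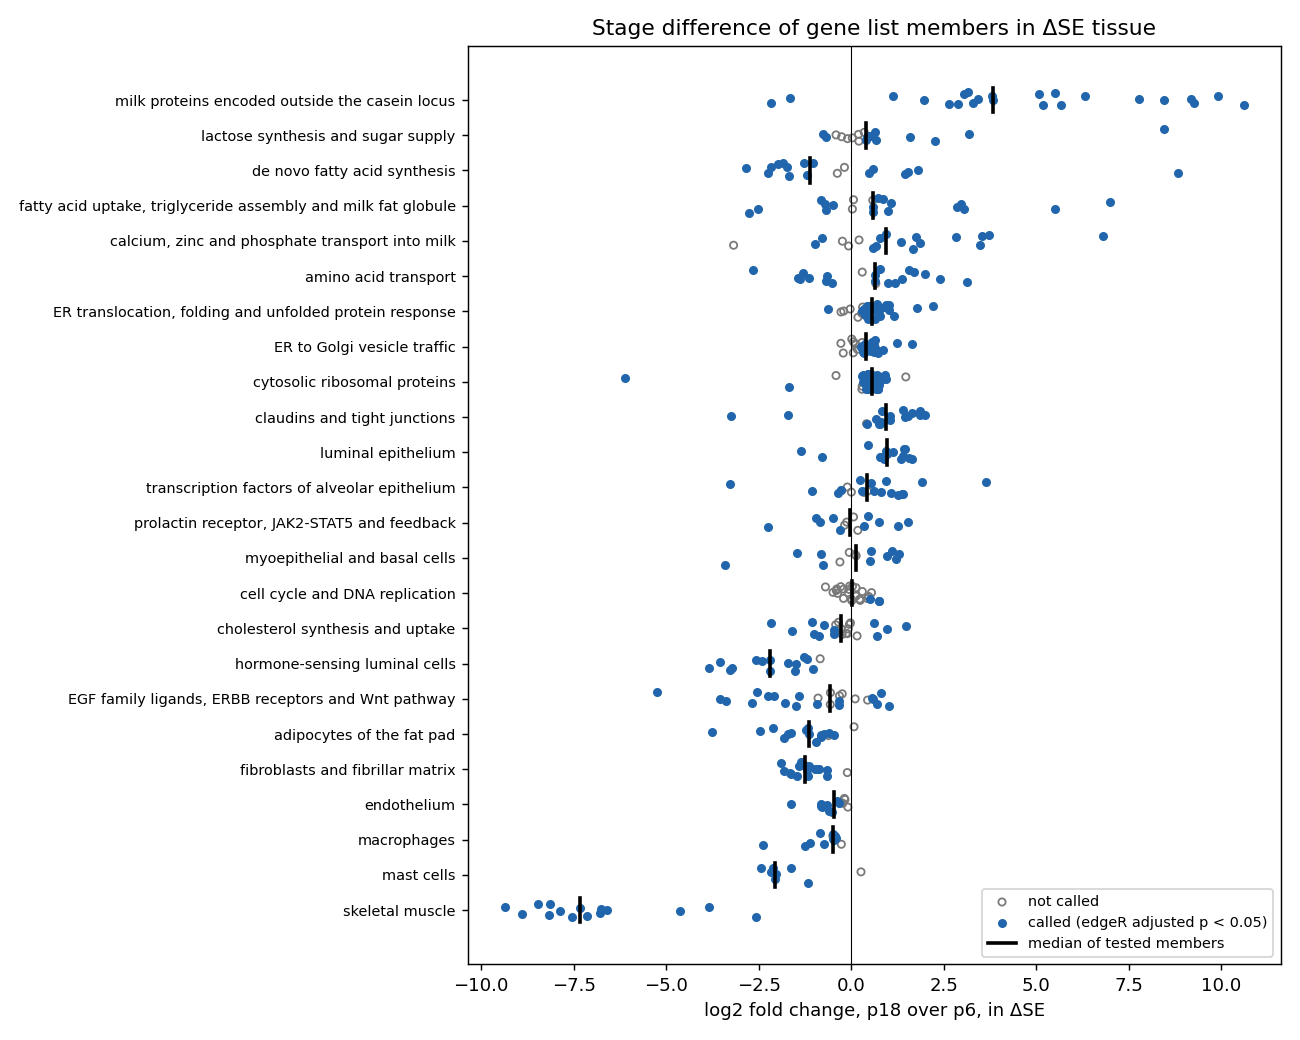
Log2 fold change of p18 over p6 in ΔSE for members of 24 gene lists, filled where the edgeR adjusted p was under 0.05, with the median of tested members as a black bar. The caseins are not plotted. Of the lists shown, milk proteins encoded outside the casein locus stand furthest to the right (median 3.84), and skeletal muscle (median -7.34), hormone-sensing (-2.18) and mast cell genes (-2.05) furthest to the left.

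Markers of the stroma mostly fell. Of 17 adipocyte genes 15 fell, of 18 fibroblast genes 17, of 14 endothelial genes 9, of 12 macrophage genes 10 and of 8 mast cell genes 7, and 0 members of these lists rose, by edgeR, by DESeq2 or at an unadjusted p under 0.05. Adipoq, adiponectin, had 596, 746, 738 and 1418 CPM at p6 and 423, 291, 533 and 318 CPM at p18. Col1a1, a fibrillar collagen, had 2572, 3634, 4209 and 2194 CPM at p6 and 825, 900.3, 1709 and 1183 CPM at p18. Cpa3, the mast cell carboxypeptidase, had 40.6, 29.6, 34.3 and 55.1 CPM at p6 and 7.12, 9.59, 5.97 and 6.82 CPM at p18. In each of these 3 genes the stages did not overlap. On the log2 scale Adipoq fell by 1.16, Col1a1 fell by 1.45 and Cpa3 fell by 2.45. Pecam1, which marks endothelium, stood at -0.18 (not called). Of 7 T cell genes edgeR called 0, with 1 at an unadjusted p under 0.05 and 1 called by DESeq2, and 1 fell without p6 replicates 2 and 4. Without p6 replicates 2 and 4, 4 of 7 mast cell genes and 17 of 18 fibroblast genes fell.
Myoepithelial genes divided, with 6 of 14 higher and 4 lower, or 4 and 5 with library totals alone. Acta2, an actin of contractile cells, had 758, 455, 509 and 576 CPM at p6 and 1142, 1201, 1278 and 1317 CPM at p18. It rose, with no overlap. Krt5 fell by 0.81 and Krt14 stood at -0.30 (not called).

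**Figure D4:**
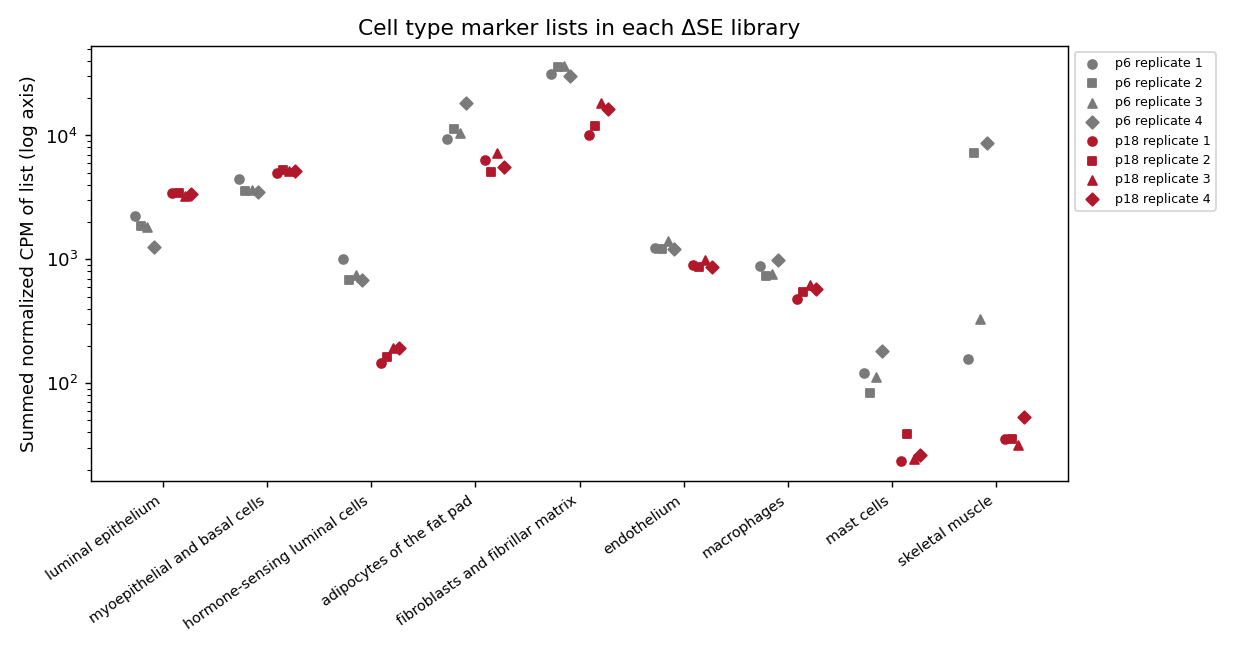
Summed normalized CPM of 9 cell type marker lists in each ΔSE library, on a log axis, with p6 in grey and p18 in red. Luminal sums are higher at p18, sums of the stroma lists are lower, and the skeletal muscle sum spans 157 to 8700 CPM at p6 through replicates 2 and 4.

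Cell division genes moved little. Of 26 cell cycle genes 3 rose and 0 fell by edgeR, 4 rose and 0 fell by DESeq2, and 5 were higher and 2 lower at an unadjusted p under 0.05. Without p6 replicates 2 and 4, or with library totals alone, 2 rose and 6 fell. Mki67, a marker of dividing cells, had 394, 315, 394 and 181 CPM at p6 and 388, 415, 468 and 469 CPM at p18. The stages overlapped (log2 0.44, adjusted p = 0.0932, edgeR).

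Over all genes 3274 rose and 3748 fell (41% of those tested), of which 819 and 1985 by at least 2-fold and 29 and 80 by at least 64-fold. With library totals alone, in place of TMM, 1678 rose and 5674 fell, and the share of calls that were higher went from 46.6% to 22.8%. That scaling moved the median of all genes from -0.08 to -0.32, and every list is read against it. Of the 80 genes with the largest falls, 59 had both p6 replicates 2 and 4 at 5 times the other 2 p6 libraries or more, and 57 remained called without them. The 15 largest falls included Ckm, creatine kinase of muscle, and Ttn, titin. A second ranking, by the smallest p among falls of at least 4-fold, was made after those genes had been seen, and its genes included Areg, Sema3b, Slc36a2, Ces1f, Etv4, Olfml3, Pnpla3, Capn8, Bcat1, Slit2, Calca, Stra6, Sfrp2 and Gcnt4.

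The same stages in WT glands gave 2080 genes higher (12.3% of 16918 tested) and 1397 lower (8.26%). These libraries share none with ΔSE. Of genes tested in both, 1565 of 2074 higher in WT were higher in ΔSE (75.5% of the WT list, 47.9% of the ΔSE list), and 1088 of 1397 lower in WT were lower in ΔSE (77.9% and 29.2%). A call in only one genotype does not show that they differ. The interaction test, which compares the stage differences themselves, called 32 of 17842 genes (0.179%), 23 above WT (0.129%) and 9 below (0.0504%), with 2902 at an unadjusted p under 0.05, and DESeq2 called 596. Without p6 replicates 2 and 4 of ΔSE it called 0 genes, with 1707 at an unadjusted p under 0.05, and DESeq2 called 106. It also called 0 genes without ΔSE p6 replicate 2, 3 or 4, ΔSE p18 replicate 1, 2 or 3, or WT p18 replicate 2, with 2217 to 3094 at an unadjusted p under 0.05. There were 1 to 8 calls without ΔSE p18 replicate 4, WT p6 replicate 1 or WT p18 replicate 1, and 1046 without WT p6 replicate 2. The WT count itself went from 3477 to 1221 without p18 replicate 2 and to 1503 without p18 replicate 3.
No casein gene was among the 32. Csn1s1 had 4.41 in WT against 7.97 in ΔSE, and Csn1s2b had 4.89 against 1.40, or against 6.31 without p6 replicate 4 of ΔSE, which turned the direction of the difference. Casein reads differed widely between the WT p6 libraries, with 20739, 846 and 35224 reads of Csn1s1. Fold changes do not give the level reached. With all 14 libraries scaled together, Csn3 at p18 stood at 89.0 to 258 CPM in ΔSE and 9031 to 11457 CPM in WT. Csn1s2b stood at 4.65 to 27.8 and 74.6 to 386 CPM. Csn1s1 spanned 12086 to 25154 CPM in ΔSE and 35331 to 44674 CPM in WT. Csn1s2a spanned 22244 to 41288 and 47873 to 59966 CPM. For Csn2 the genotypes overlapped, at 21031 to 38007 CPM in ΔSE and 36102 to 43463 CPM in WT. These p18 levels were not tested between genotypes here. Card14, which encodes a scaffold protein, had 5.23, 4, 4.54 and 4.52 CPM at p6 and 79.6, 78.7, 59.9 and 59.2 CPM at p18 in ΔSE, and its difference between genotypes was 2.02 (adjusted p = 0.0498, edgeR). Cpa3 stood at 0.14 in WT (not called) and fell by 2.45 in ΔSE, a difference of -2.54 (adjusted p = 0.0404, edgeR). With all 14 libraries scaled together, Cpa3 had 29.0 to 54.0 CPM at p6 in ΔSE and 5.63 to 17.2 CPM in WT. At p18 it had 5.85 to 9.39 CPM in ΔSE and 9.76 to 15.7 CPM in WT, so the genotypes lay further apart at p6.

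**Figure D5:**
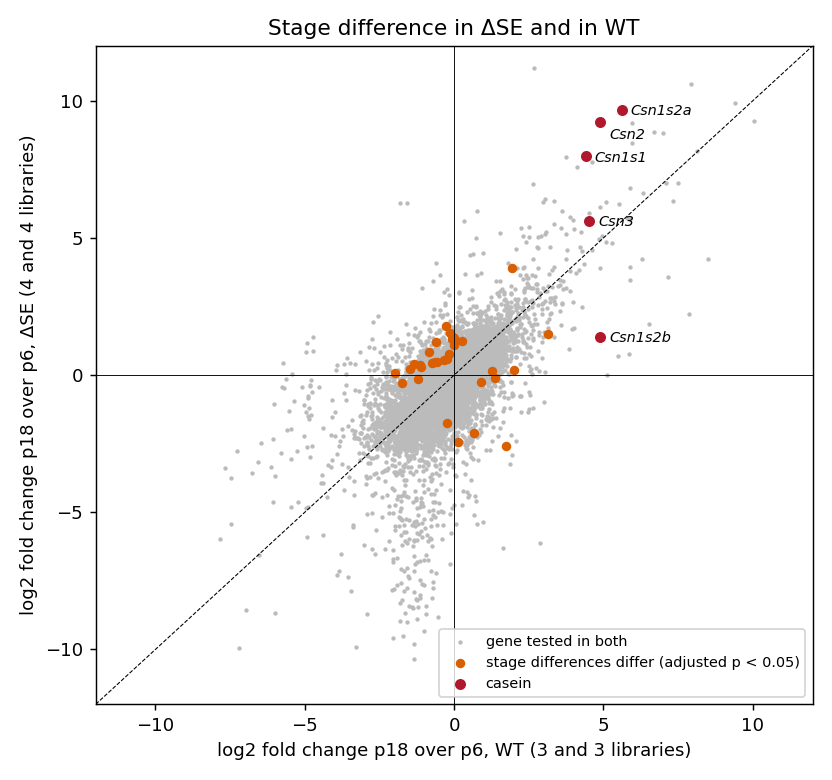
Log2 fold change of p18 over p6 in WT (horizontal) and ΔSE (vertical) for genes tested in both, with the equality line dashed, the 5 caseins in red and genes called by the interaction test in orange. Csn1s1, Csn2, Csn1s2a and Csn3 lie above the line. Csn1s2b lies below it through p6 replicate 4 of ΔSE (6.31 without that library against 4.89 in WT). None of the 5 was called by the interaction test. A tail of genes with large falls in ΔSE stands below the rest. Positions show fold changes, not the level reached at p18. That level was lower in every ΔSE library than in WT for Csn3, Csn1s2b, Csn1s1 and Csn1s2a. For Csn2 the genotypes overlapped at p18.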

How the data were processed

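Total RNA of mammary tissue was sequenced after removal of ribosomal RNA. Per the labels and the study's methods, the authors trimmed reads with Trimmomatic, aligned them to mm10 (GRCm38) with STAR and counted them per gene with HTSeq. The annotation they counted on is not given in the sources used here. The deposited values are raw counts per gene symbol, 1 table per library.

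Genes with at least 10 reads over the 8 ΔSE libraries were tested, p18 against p6, with edgeR 4.0.16 (TMM, quasi-likelihood test) in R 4.3.3, and p-values were adjusted over all genes tested by the Benjamini-Hochberg method. Rn45s and Lars2 were left out of library sizes. The interaction of genotype and stage was fitted over 14 libraries. DESeq2 1.42.0 was an alternative, beside other scalings, filters, a replicate block, 1 factor of unwanted variation, thinned counts and leaving out each library. Statistics were tested on simulated data. The 5 libraries of single-enhancer mutants were not used here.

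The members and gene lists were chosen with earlier results of these data known. Genes were named by rule: all caseins and locus genes, from each list the 4 or fewer called genes of lowest p and defining members that were not called, the 15 largest changes in each direction among genes averaging 50 or more normalized counts, and up to 10 interaction calls in each direction. Other list members were named for their known role after their values had been seen: these include Btn1a1, Fasn, Acly, Stat5b, Prlr, Cited1, Pgr, Esr1, Lgr5, Adipoq, Col1a1, Krt5, Krt8, Pthlh, Fcgbp, Slc30a2, Atp2b2, Egf and Erbb4. The largest falls were nearly all muscle genes. A ranking without p6 replicates 2 and 4 was tried next and still held muscle genes, so falls were then ranked by the smallest p. Both rankings were chosen after the data had been seen, as was the leaving out of those 2 libraries together. A few genes that these rules select are not reported here. Exon lengths and gene positions came from GENCODE vM21, and promoter sequences from RefSeq.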

Additional observations from a re-analysis of the deposited data

Results flagged for a closer look

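Of 145 groups of 4 libraries examined (named genes and summed lists at each stage), 7 held a library far from the other 3, and chance flags about 1 in 20 groups. At p6, replicate 4 was the highest for Csn1s2b at 18.2 CPM and for Csn3 at 10.7 CPM, and the lowest for the amino acid transporter Slc7a5 at 34.3 CPM. The fatty acid carrier Fabp3 was highest in p6 replicate 2, at 24.6 CPM. Summed myoepithelial genes were highest in p6 replicate 1, at 4428 CPM, and summed endothelial genes in p6 replicate 3, at 1403 CPM. At p18 the summed skeletal muscle genes were highest in replicate 4, at 53.6 CPM.

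The signed stage difference (log2, p18 over p6) in ΔSE minus that in WT was positive for Extl1 by 2.11, Plxnb1 by 2.08, Card14 by 2.02, Rasal1 by 1.84, Thbs1 by 1.79, Icam1 by 1.74, Nfkb2 by 1.71, Fzd5 by 1.71, Sox4 by 1.56 and Clca3a2 by 1.50. It was negative, at -2.54 for Cpa3, -1.75 for Glrx, -1.60 for Tmem165, -1.47 for Lsp1, -1.42 for Myeov2, -1.12 for Wls and -1.08 for Yipf5. The sign does not say in which genotype the change was larger: Icam1 stood at 0.22 in ΔSE (not called) and fell by 1.49 in WT, while Cpa3 fell by 2.45 in ΔSE and stood at 0.14 in WT (not called). All 17 were called by edgeR's interaction test over 14 libraries. Without p6 replicates 2 and 4 of ΔSE together, that test called 0 genes (1707 had an unadjusted p under 0.05) and DESeq2 called 106.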

How the results depend on the processing

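Scaling and thresholds moved the counts of calls. With library totals alone, 1678 genes rose and 5674 fell, and with a minimum log2 fold change of 1 the counts were 408 and 591. Leaving out each library in turn gave 2786 to 3261 higher and 3135 to 3674 lower, and leaving out p6 replicates 2 and 4 together, chosen after seeing the data, gave 2740 and 2975. Csn1s2b was called with 1 factor of unwanted variation (log2 2.59, adjusted p = 0.0499, edgeR) and without p6 replicates 2 and 4 (log2 6.56, adjusted p = 0.000198), and leaving out single libraries gave 0.68 to 6.31, with adjusted p from 0.000148 to 0.687. The other 4 caseins kept their direction and their side of the threshold in every alternative run, with ranges over left-out libraries of 7.70 to 8.79 for Csn1s1, 8.97 to 9.69 for Csn2, 9.46 to 9.95 for Csn1s2a and 5.19 to 7.89 for Csn3. The casein share kept its direction, at 8.56 to 9.29 on the log2 scale, and its exact permutation p was the smallest possible throughout, which says nothing of its stability. The interaction count of 32 was 596 with DESeq2, 248 with library totals alone, 57 with the replicate block and 0 without p6 replicates 2 and 4 (1707 at an unadjusted p under 0.05, 106 by DESeq2), and leaving out single libraries gave 0 to 1046. In WT, leaving out single libraries gave 1221 to 3379 calls, against 3477. The causes of these moves were not tested. Deviations of same-numbered libraries of the 2 stages from their stage means correlated at -0.05 to 0.09. That does not show whether they share more than a number, and the labels do not say. With the replicate block 3252 genes rose and 3648 fell. Among named genes, 126 alternative results lost the call, 79 of them under the minimum fold change, and 28 gained one. At these depths a gene at 0 may hold up to 3 reads' worth of RNA per library, and low genes such as Csn1s2b, Sult1d1 and Saa3 rest on few reads.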

Other observations

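Other gene groups were counted in ΔSE glands, where 19.1% of all genes tested rose and 21.9% fell. The rises of interferon-stimulated genes and the falls of immediate early genes and of B and plasma cell genes were near those shares. Of 24 interferon-stimulated genes, 4 rose and 9 fell, and without p6 replicates 2 and 4 there were 6 and 4, and with library totals alone 1 and 11. Mx1 and Oas2, antiviral effectors, fell by 1.65 and 1.37, and Bst2 rose by 0.91. Of 17 clock genes, 5 rose and 6 fell, or 4 and 3 without p6 replicates 2 and 4, and 3 and 8 with library totals alone. Hlf, a clock output factor, rose from 11.2 to 20.9 CPM at p6 to 82.7 to 117 CPM at p18, while Nr1d1, a clock repressor, fell by 1.24. Of 17 immediate early genes 5 rose and 3 fell, or 3 and 4 with library totals alone. Jund and Btg2 rose by 1.23 and 0.82, Egr1, Egr2 and Egr3 fell by 1.71, 2.44 and 2.03, and Fos stood at 0.08 (not called).

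Of 10 nerve and Schwann cell genes, 8 fell and 2 rose. Sox10, a transcription factor of glia, had 80.3, 58.6, 91.0 and 67.2 CPM at p6 and 193, 187, 179 and 141 CPM at p18, and the stages did not overlap. Of 10 B and plasma cell genes tested 1 rose and 2 fell. Ccl28, a chemokine that draws antibody-secreting cells, rose by 2.31, and Ccr10 (by 1.27) and Cr2 fell but were not called without p6 replicates 2 and 4 (adjusted p = 0.0703 and 0.136, edgeR). Genes of oxidative phosphorylation rose in 14 of 76 and fell in 1, and this share of rises is near the 19.1% of all genes tested that rose. Without p6 replicates 2 and 4, 38 of 76 rose, and with library totals alone 2 rose and 4 fell. Col4a1 and Flna were among the most abundant genes with little change, at -0.10 and -0.01 (adjusted p = 0.654 and 0.945, edgeR).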
